A study of Mus musculus with 8 samples.

Results

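The regions described here are the differential H3K27ac regions of Nrip1-deficient mouse myotubes whose centre lies inside an annotated exon, away from any transcript start. Of 11180 differential regions, 11178 lay on chromosomes 1 to 19 and X, and 398 of these had a centre more than 1 kb from every GENCODE M21 transcript start and within a coding, untranslated or non-coding exon (mm10). In 106 of them H3K27ac was increased in the knockout, and in 292 it was decreased. The other regions had their centre in an intron (5565), between genes (3807) or within 1 kb of a start (1408, called promoter regions below).

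The study profiled H3K27ac by CUT&RUN, in which an antibody directs a nuclease to chromatin and the released fragments are sequenced, in primary myotubes grown from satellite cells of gastrocnemius muscle, expanded over several passages and differentiated for 4 days. Knockout (Nrip1KO) myotubes came, per the paper, from mice whose floxed Nrip1 alleles (C57BL/6J) are cut by Cre. The Cre is under the muscle creatine kinase promoter, which acts in striated muscle, and the Cre mice were C57BL/6JN. Control (Ctrl) myotubes came from mice the paper calls WT, and its methods give Cre-negative littermates as the controls. Nrip1 encodes RIP140, a corepressor of nuclear receptors. The labels give neither the Cre line nor the age of the animals. There were 8 libraries in 4 groups of 2: knockout and control, each with H3K27ac antibody and with IgG. Nuclei were pooled and divided between antibodies, no label says that the paired libraries were separate cultures or animals, and the labels and the methods name different suppliers of the H3K27ac antibody.

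The deposited lists give the position and the direction of each region, with a score that is the same for every region. No value per library was analysed here, so the size of each change, its spread over the libraries, the IgG level and the depth are unknown. A region entered the lists when its H3K27ac peak was at least 2-fold stronger in one genotype, as judged by the authors with HOMER. Regions are not replicates of a condition and neighbouring regions are not independent, so the p-values below take single regions as the units and say nothing of the spread between myotube cultures.

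H3K27ac is acetylation of lysine on histone H3 and marks active promoters and enhancers. Enhancers are mostly found in introns and between genes, but some overlap exons, where the same bases carry regulatory and coding or transcript functions. Acetylation over an exon may belong to the host gene or to a neighbour, and a broad active domain can reach exons from a start or an enhancer nearby.

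The stretches printed below come from the widest coding-exon regions of each direction in which one of 8 short motifs lay in coding bases, and show what exon sequence sits under such a region. Each is 30 bases of the RefSeq GRCm38.p6 genome (mm10), read 5′ to 3′ on the strand of the host gene, with the motif match on either strand in capitals. Where several sites lay in coding bases, such as 10 in Usf3 and 9 in H6pd, only 1 is shown. The Pak4 and Ncapd2 sites lie 502 and 1689 bp from the region centre. Both are outside the central 500 bp in which motifs are counted below. The first group is from increased regions. Blm (chr7:80496054-80496083, minus strand) holds an AP-1 match, Pak4 (chr7:28560154-28560183, minus) a GC box, Bloc1s6 (chr2:122746586-122746615, plus) an E-box and Ankrd40 (chr11:94334848-94334877, plus) a TEAD match.
Blm: aggggataagacTGACTCAgaagctgcaaa
Pak4: cgggacaacctcCCGCCCcgactgaagaac
Bloc1s6: gaaagagaaaagCAGCTGacagccaagcca
Ankrd40: gcccggcgccagCATTCCagccatttttct

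The second group is from decreased regions. Usf3 (chr16:44216072-44216101, plus) and Ncapd2 (chr6:125169941-125169970, minus) hold an E-box, H6pd (chr4:149981601-149981630, minus) a RUNX match, Myof (chr19:37921385-37921414, minus) a TEAD match and Ranbp3 (chr17:56692627-56692656, plus) a GC box.
Usf3: ccagtacttcagCAGCTGcccccgaagtgc
Ncapd2: tactgtatgtccCAGCTGcccctcacagag
H6pd: gcccatctcaggTGTGGTgcctctttctgg
Myof: cagtgtcccacaGGAATGcactgttaggat
Ranbp3: ccttagacccttCCGCCCctgctagcgctt

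Exon-centred regions were more often decreased than the rest of the regions away from starts. An increase was found in 26.6% of them (95% Wilson interval 22.5 to 31.2), against 35.0% of all 11178 regions and 34.3% of the 9372 intronic and intergenic regions. The odds ratio of an increase, exon-centred against intronic and intergenic, was 0.695 (95% interval 0.554 to 0.871, Fisher's exact test, two-sided p = 0.00141). The call was lost when regions were compared within 5 classes of GC content, where the Mantel-Haenszel odds ratio was 0.910 (0.705 to 1.18, p = 0.478, n = 398 and n = 9372 regions).

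The exon types divided by direction. Of 76 regions centred in coding exons 16 were increased and 60 decreased, or 21.1% increased (13.4 to 31.5). In 3′ UTRs 33 were increased and 140 decreased, or 19.1% (13.9 to 25.6). In exons of non-coding transcripts 56 were increased and 91 decreased, or 38.1% (30.6 to 46.2). Only 2 centres lay in a 5′ UTR, an increased one in the odorant receptor gene Olfr1226 and a decreased one in the gene model Gm10803.

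Against intronic and intergenic regions, the odds ratio of an increase was 0.510 (0.293 to 0.887) for coding exons and 0.461 (0.316 to 0.673) for UTRs, with p = 0.0224 and p = 7.27e-05 by Fisher's exact test after Benjamini-Hochberg adjustment over the 3 exon types. For non-coding exons it was 1.18 (0.842 to 1.65, adjusted p = 0.337, n = 147 regions). Within GC classes the Mantel-Haenszel odds ratios became 0.798 for coding exons (0.434 to 1.47, adjusted p = 0.472, n = 76 regions) and 0.612 for UTRs (0.397 to 0.942, adjusted p = 0.0836, n = 175). That for non-coding exons was 1.34 (0.922 to 1.95, adjusted p = 0.191, n = 147). Neither call was kept, though the UTR interval, which is not adjusted for the 3 exon types, stayed below 1. Coding and UTR exons as one class differed from non-coding exons in a comparison added after the data were seen (odds ratio 0.404, 0.257 to 0.637, Fisher's exact test, p = 0.000101). That difference was still past the threshold within GC classes (0.519, 0.308 to 0.872, p = 0.0114, n = 398 regions), but not by Fisher's exact test with transcripts of the GENCODE basic set only (0.572, p = 0.0789).

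**Figure D1:**
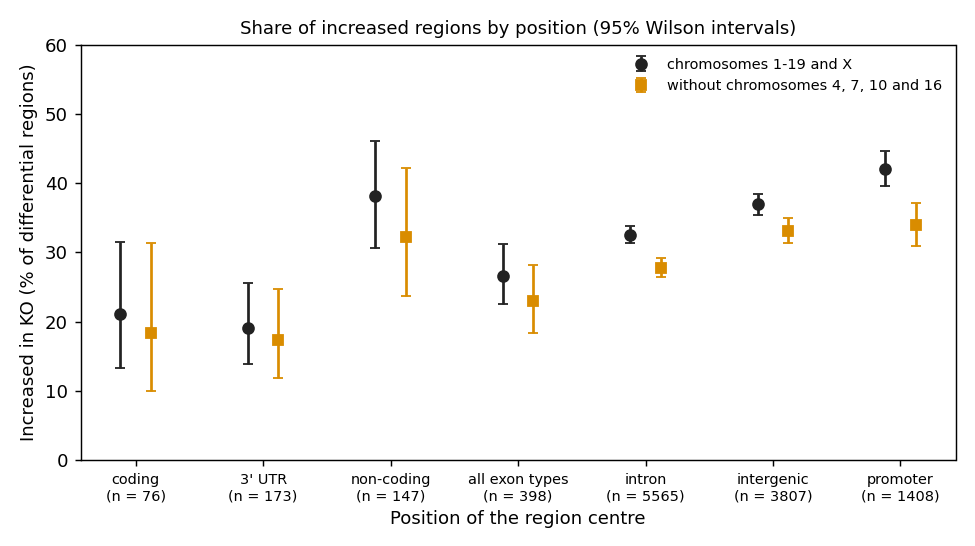
Share of differential regions that were increased in the knockout (y axis, %) by the position of the region centre (x axis), for all chromosomes (black circles) and without chromosomes 4, 7, 10 and 16 (orange squares); bars are 95% Wilson intervals. Coding exons and 3′ UTRs sit at 21.1% and 19.1%, below non-coding exons at 38.1% and promoter regions at 42.1%.

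GC content differed between the directions in each exon type. The median GC content was 42.6% in increased and 50.0% in decreased exon-centred regions, against 42.4% and 47.3% in intronic and intergenic ones. In 3′ UTRs the medians were 41.9% and 51.1%, in coding exons 43.8% and 50.7%, and in non-coding exons 42.7% and 47.5%. Of the exon-centred regions 36.4% (145) fell in the most GC-rich of the 5 classes, against 19.3% of the intronic and intergenic ones.

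Along the 5 GC classes the share of increased regions fell from 70.0% to 46.9%, 24.6%, 17.3% and 7.59% in the exon-centred regions. In intronic and intergenic regions the same shares were 67.7%, 42.4%, 29.2%, 20.8% and 10.2%. The exon-centred share lay above the other in the 2 classes of lowest GC and below it in the other 3, and its Wilson interval held the other share in each class. Whether the GC gradient comes from the cells or from the libraries was not tested.

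**Figure D2:**
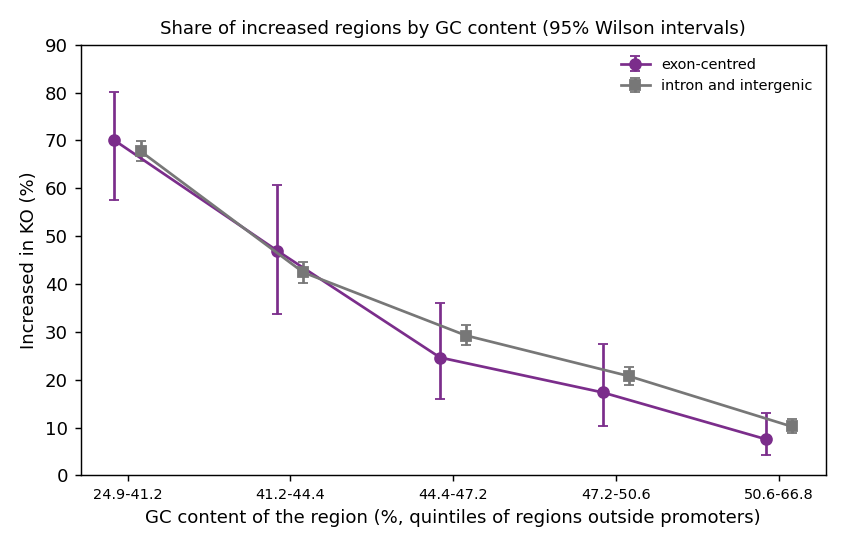
Share of increased regions (y axis, %) in 5 classes of GC content (x axis, bounds in %), for exon-centred (purple circles) and intronic and intergenic regions (grey squares); bars are 95% Wilson intervals. Both series fall together, from 70.0% to 7.59% and from 67.7% to 10.2%.

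Measured against the sequence available, 3′ UTRs carried the highest density of decreased regions among the classes. Exons made up 3.38% of the bases over 1 kb from a start and held 4.07% of the regions there. By direction they held 3.19% of the increased and 4.53% of the decreased regions. Per Mb, 3′ UTRs held 1.07 increased and 4.54 decreased centres, coding exons 0.639 and 2.40, and non-coding exons 2.07 and 3.36. Introns held 1.79 and 3.71 and intergenic sequence 1.02 and 1.74. Coding exons held fewer centres of both directions per Mb than introns, as did the 5′ UTRs with their 2 regions.

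**Figure D3:**
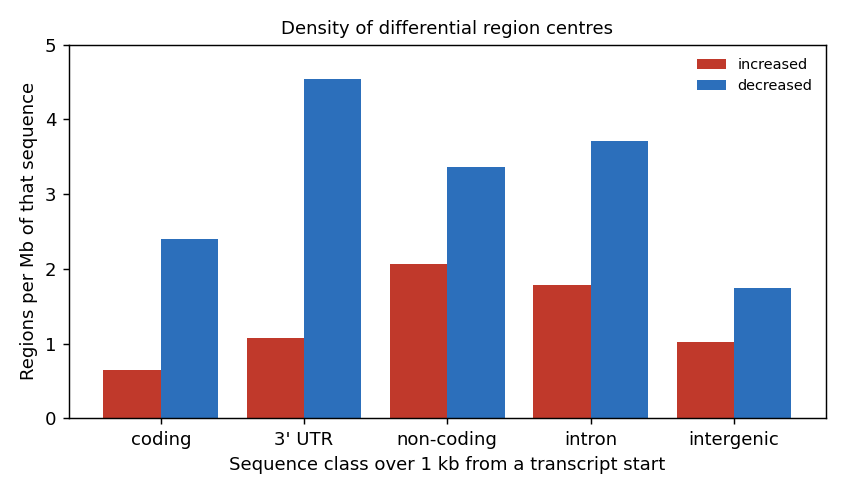
Centres of increased (red) and decreased (blue) regions per Mb (y axis) of each class of sequence more than 1 kb from a transcript start (x axis). Decreased centres reach 4.54 per Mb in 3′ UTRs, and increased centres reach 2.07 per Mb in non-coding exons.

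The 16 increased coding-exon regions lay in 15 genes. The widest, of 4014 bp (chr7:64238419-64242432), was centred in exon 21 of 27 of Trpm1, a cation channel gene best known from retina and pigment cells. Blm, a DNA helicase gene, held one of 2717 bp in exon 10 of 22 (chr7:80494721-80497437). Pak4, which encodes a kinase acting on the actin cytoskeleton, held 2, of 1966 bp (chr7:28558681-28560646, exon 10 of 10) and 959 bp (chr7:28562121-28563079, exon 7 of 10). The Pak4 pair had GC contents of 56.9% and 60.5%, the upper end of the increased coding-exon range of 36.1% to 60.5%.

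The next in width were in Bloc1s6, a subunit of a lysosome-related organelle complex (1727 bp, chr2:122745717-122747443), Ankrd40 (1362 bp, chr11:94334170-94335531), Rsl1d1 (1335 bp, chr16:11192937-11194271) and Pirb, an inhibitory immune receptor (918 bp, chr7:3716853-3717770). The remaining 8 were between 501 and 821 bp wide, 501 bp being the shortest width in the lists. They lay in 1700086D15Rik, the sialidase gene Neu2, the sperm gene Zp3r, the calpain inhibitor gene Cast, Armc3, the lipid transporter gene Abca12, Bdh2 and Tmc7. Of the 16, 7 were on chromosomes 4, 7, 10 or 16, and Rsl1d1 held the only increased exon-centred region of chromosome 16.

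The widest decreased coding-exon region, of 5460 bp (chr16:44213207-44218666), was centred in the last exon of Usf3, which is 12051 bp long, and was 59.6% coding. Ncapd2, a condensin subunit gene, held one of 4750 bp (chr6:125165889-125170638) in exon 32 of 32, and H6pd, a sugar phosphate dehydrogenase gene of the endoplasmic reticulum, one of 4175 bp (chr4:149979565-149983739) in exon 5 of 5. Myof encodes myoferlin, a membrane protein of myoblast fusion, and held one of 3427 bp (chr19:37919662-37923088) in exon 41 of 53. Ranbp3, of nuclear export, held one of 3299 bp (chr17:56691028-56694326) in exon 3 of 17. Usf3, H6pd and Myof each held 1 further decreased region or more in the gene body. Each also held 1 at a start, which may be among those in the body. Ncapd2 and Ranbp3 held no other.

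Coding exons were mostly smaller than the regions centred in them. The median exon length was 225 bp for increased and 216 bp for decreased regions, with median region widths of 869.5 and 917.5 bp. The region reached past its exon in 15 of 16 increased and 52 of 60 decreased cases, and covered the whole exon in 14 and 40. The median share of coding bases in these regions was 17.5% for increased and 21.6% for decreased ones.

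The 3′ UTR regions lay in long last exons. The exon was the last of its transcript in 29 of 33 increased and 139 of 140 decreased regions, with median exon lengths of 3377 and 2847 bp. The centres lay at a median of 95.1% and 96.7% of the gene length. The last-exon counts and these positions follow largely from the class, as a 3′ UTR ends its transcript. Increased ones had a median width of 708 bp and decreased ones of 930 bp.

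The widest decreased 3′ UTR region was in Nfatc2, a calcineurin-regulated transcription factor (5691 bp, chr2:168515386-168521076). A730049H05Rik (3928 bp, chr6:92840358-92844285) and Trim67 (3553 bp, chr8:124831688-124835240) were also among the 5 widest. Nfatc2 held 7 decreased regions in its body, this one included, and no increased one. It held 2 decreased regions at its starts, which may be among the 7.

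The widest increased 3′ UTR regions were in Nr2f2, an orphan nuclear receptor (2995 bp, chr7:70350843-70353837), Maf, a leucine zipper factor (2534 bp, chr8:115700925-115703458), Olfm3 (1640 bp, chr3:115124095-115125734), Lrp8, a reelin receptor (1419 bp, chr4:107873918-107875336), and Olfr149 (1399 bp, chr9:39700606-39702004). Olfm3 held 6 increased regions in its body, this one included, and 1 at a start, which may be among the 6. Lrp8 went the other way from its surroundings, with 3 decreased regions in the same gene body.

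The gene with the nearest start was often another gene than the one whose 3′ UTR held the centre. The host was the nearest in 16 of 33 increased and 69 of 140 decreased 3′ UTR regions, against 76 of 106 and 190 of 292 over all exon types. The region in the Lrp8 3′ UTR was nearest to Magoh, that of Smad3 to Aagab, both of those in Mettl16 to Mnt, and that of A730049H05Rik to Adamts9. Exon-centred regions also lay closer to a start than others, at medians of 4400 bp (increased) and 4497 bp (decreased) against 15292 and 12037 bp in intronic and intergenic regions.

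**Figure D4:**
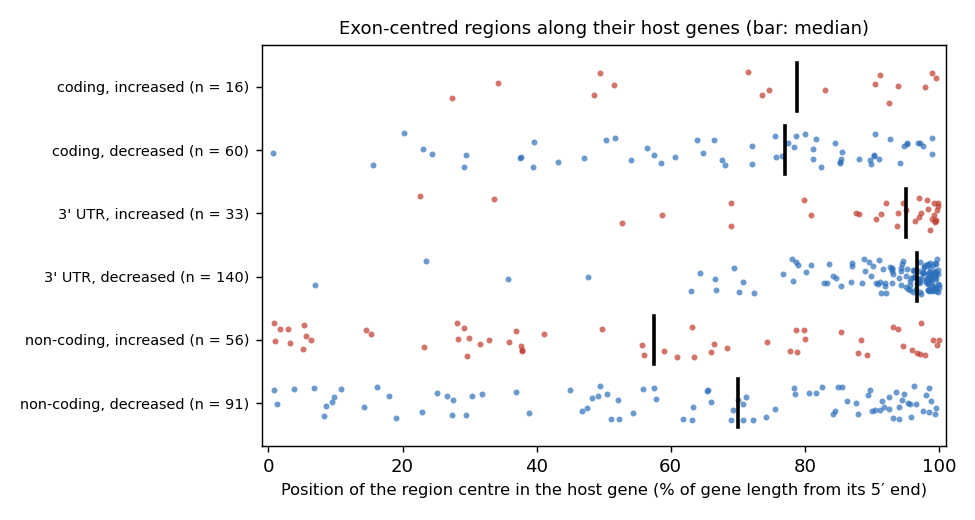
Position of each exon-centred region along its host gene (x axis, % of gene length from the 5′ end) by exon type and direction (rows); points are regions, with vertical jitter for display only, and black bars are medians. The 3′ UTR regions lie near the gene end, as their class largely fixes (medians 95.1% and 96.7%), while the non-coding ones spread over the gene (57.5% and 70.0%).

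Many non-coding exons belonged to transcripts of protein-coding genes. The ranking of protein-coding hosts first did not act here, as no non-coding centre lay in exons of several genes. Among the 56 increased regions 34 had a protein-coding host, 11 a long non-coding RNA and 11 an unconfirmed gene model of the class TEC, and among the 91 decreased ones 44, 34 and 9, with 4 pseudogenes. The transcript was annotated as a retained intron in 31 increased and 36 decreased regions. With the basic transcript set, 21 of 56 and 45 of 91 were still centred in a non-coding exon, against 16 of 16 and 59 of 60 for coding exons and 31 of 33 and 136 of 140 for 3′ UTRs.

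The widest of the 398 regions, of 6010 bp, was an increased one in a non-coding Nr2f2 transcript (chr7:70354395-70360404), with its centre 1003 bp from a start. Gm45222 (4113 bp, chr7:90145170-90149282), Gm43594 (3795 bp, chr5:81248440-81252234), Katnbl1 (2924 bp, chr2:112404994-112407917) and Usp29 (2737 bp, chr7:6731197-6733933) followed. Among decreased ones the widest were in Col8a1, a short-chain collagen (4914 bp, chr16:57751189-57756102), Ankrd46 (3967 bp, chr15:36489590-36493556), Nt5e, an ectonucleotidase (3401 bp, chr9:88328544-88331944), Klf3, a zinc finger repressor (3257 bp, chr5:64815575-64818831), and Gm16217 (2944 bp, chr10:127596168-127599111). Col8a1 held 6 decreased regions in its body, this one included.

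Although every centre was over 1 kb from a start, 4 increased and 7 decreased regions were wide enough to cover one. The centres of 7 increased and 14 decreased regions lay between 1000 and 1100 bp from a start.

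The 398 regions had 383 host genes, 103 for increased and 280 for decreased regions, and no gene hosted both, although only the 15 genes with 2 regions could have. Where the nearest region lay within 10 kb, it had the same direction for 25 of 27 increased and 89 of 96 decreased exon-centred regions. The same share among intronic and intergenic regions, of which 34.3% were increased, is not given here, so these counts have no background. Protein-coding hosts numbered 82 and 233 of 21755 such genes. Of the 15 genes with 2 exon-centred regions, the increased ones were Nr2f2, Pak4 and Gm44194, and the decreased ones were BC004004, Fam217b, Maco1, Mettl16, Nectin3, Nwd1, Pgpep1, Sh3pxd2b, Slc25a36, Synpo, Tle3 and Tmem245. In BC004004, Fam217b, Mettl16, Nectin3, Pgpep1, Slc25a36, Synpo and Tmem245 both regions were in the 3′ UTR, and in Tle3, a Groucho-family corepressor, one was in a coding and one in a non-coding exon.

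A further region of the same direction lay in the body of the host gene for 26 of 106 increased and 124 of 292 decreased regions, and one of the opposite direction for 7 and 17. A promoter region of the host changed in the same direction for 12 increased and 29 decreased regions, and in the opposite direction for 1 and 7. A promoter region centred inside the gene can enter both the body and the promoter counts.

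For intronic regions, whose host genes were longer (medians of 144717 bp for increased and 115411 bp for decreased, against 35343 and 30468 bp), such neighbours were more frequent in the gene body. A further region of the same direction lay there for 54.4% of increased and 64.6% of decreased intronic regions, against 24.5% and 42.5% of exon-centred ones. One of the opposite direction lay there for 23.6% and 16.9%, against 6.60% and 5.82%. At the host promoter the same direction was found for 15.0% and 9.96%, against 11.3% and 9.93%, and the opposite one for 2.04% and 1.70%, against 0.943% and 2.40%. These regions share their gene and may be parts of one domain. No test was made.

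In 9 lists of genes, few members hosted an exon-centred region. The myogenic and progenitor regulators held 2 hosts of 30, both decreased, Mef2d, a MADS-box factor of muscle differentiation (989 bp), and Heyl, a Notch target (912 bp), each in the 3′ UTR. The extracellular matrix list held Col15a1 and Col8a1 of 43, both decreased. Among 35 focal adhesion and cytoskeleton genes, Tns3 and Pdlim5 hosted decreased regions and Cald1, an actin-binding protein, an increased one in a non-coding exon (710 bp). Single decreased hosts were Xirp1 of 40 sarcomere genes, Lrp4, an agrin receptor, of 30 neuromuscular junction and angiogenesis genes and Smad3 of 42 signalling genes.

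The 32 chromatin regulators and the 36 genes of fatty acid and mitochondrial metabolism held 0 hosts. Over all protein-coding genes 0.377% hosted an increased and 1.07% a decreased exon-centred region. Lists that held a decreased host had a higher decreased share, from 2.38% (signalling) to 6.67% (myogenic and progenitor regulators). Each of these shares rests on 1 or 2 hosts, and 1 host already gave the 2.38%. In lists this short 1 host is enough to exceed 1.07%, so the higher share follows from holding one. In the same lists a decreased region anywhere in the gene body was also more frequent. The share of genes ran from 13.3% (neuromuscular junction and angiogenesis) to 60% (focal adhesion), against 11.96% of all protein-coding genes. The host shares therefore do not set exons apart from the rest of these genes. The focal adhesion list, with 1 increased host, had an increased share of 2.86%. Whether the lists differ from all protein-coding genes was not tested. None of the 12 genes that the study named from this peak set hosted an exon-centred region, nor did Nrip1 or Ckm, the muscle creatine kinase gene.

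Of the exon-centred regions, 119 were on chromosomes 4, 7, 10 and 16, whose regions went mostly one way. Other chromosomes were uneven too, such as chromosome 11 with 106 increased and 548 decreased among all its regions. On chromosomes 7 and 10, 38 of 49 were increased (77.6%), against 85.4% of intronic and intergenic regions there. On chromosomes 4 and 16, 4 of 70 were increased (5.71%), against 7.78%. Chromosome 7 alone held 27 increased and 2 decreased, while chromosome 10 held 11 and 9, where all its regions numbered 453 and 203. Chromosome 4 held 3 and 35, and chromosome 16 held 1 and 31. Chromosome 17 held 0 increased and 14 decreased, of 88 and 327 regions in all. The genotype and any chromosome-wide difference between the 2 sets of myotubes cannot be told apart.

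Without these 4 chromosomes 64 increased and 215 decreased exon-centred regions remained, so that 77.1% were decreased, against 70.0% of intronic and intergenic regions there. Coding exons then had 9 of 49 increased, 3′ UTRs 23 of 132 and non-coding exons 31 of 96. The coding-exon call ended there, with an odds ratio of 0.525 (Fisher's exact test, adjusted p = 0.128), and also within chromosomes (0.557, Mantel-Haenszel, adjusted p = 0.117, n = 76 regions).

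**Figure D5:**
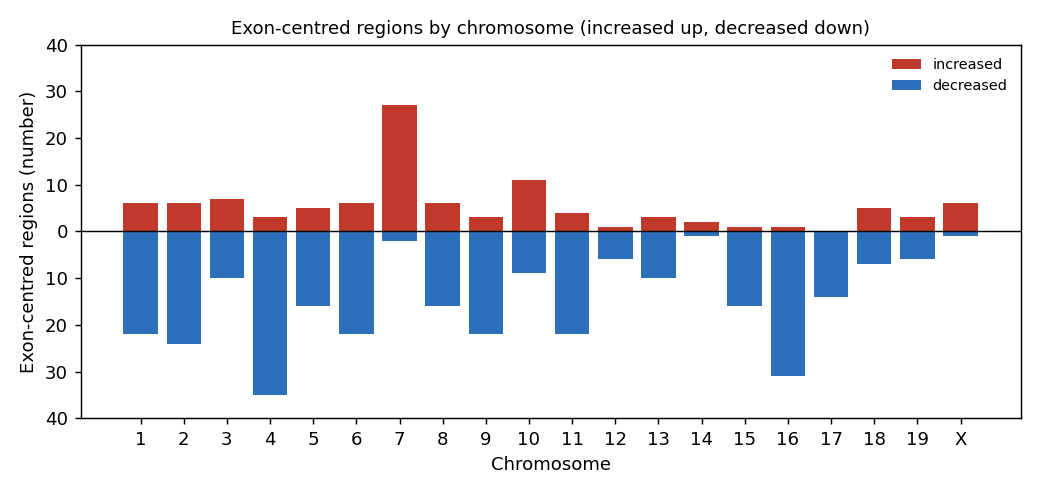
Number of exon-centred regions (y axis) on each chromosome (x axis), increased upward in red and decreased downward in blue. Chromosome 7 holds 27 increased and 2 decreased, whereas chromosomes 4 and 16 hold 35 and 31 decreased with 3 and 1 increased.

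Motif letters were counted in the central 500 bp of each region and set beside intronic and intergenic regions of the same direction. The E-box CAGCTG, bound by MyoD-type factors, was in 33.0% of increased and 40.4% of decreased exon-centred regions, against 29.4% and 37.7% of intronic and intergenic ones. The AP-1 letters TGANTCA were in 24.5% and 17.1%, against 25.8% and 18.6%. The TEAD letters CATTCC were in 33.0% and 26.4%, against 31.1% and 27.5%.

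The RUNX letters TGTGGT were in 44.3% and 38.7%, against 35.3% and 37.0%, and the nuclear receptor half-site AGGTCA in 23.6% and 32.9%, against 26.4% and 31.8%. The GC box GGGCGG was in 8.49% (9 of 106) and 8.56%, against 4.38% and 6.84%. The Wilson interval of the increased share (4.53 to 15.4) lay just above 4.38%, while that of the decreased share (5.87 to 12.3) held 6.84%. For every other motif and direction the interval held the intronic and intergenic share. No allowance was made for the 8 motifs searched. Both strands were searched and no test was made. The serum response element core and the C/EBP letters TTGCGCAA were in 0 of 106 and 0 of 292, which allows shares of up to 2.83% and 1.03%, taking 3 counts of the total as the limit of a count of 0. Both were also rare in intronic and intergenic regions. There the core was in 0.0933% of increased and 0.0162% of decreased regions, and the C/EBP letters in 0.0311% and 0.0487%. Counts of 0 therefore do not set exon-centred regions apart. A match of letters does not show that a factor was bound.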

How the data were processed

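H3K27ac and IgG CUT&RUN libraries from knockout and control myotubes, 2 per group, were compared by the authors. Per the methods and the submitters' processing notes, reads were aligned to mm10 with BWA-MEM2 (2.2.1), broad peaks were called with HOMER (4.11), and regions differing 2-fold or more were kept. How replicates and IgG entered is not given in the sources used here. The deposited files are 2 lists of regions, increased and decreased, whose score column holds 1 distinct score and was not used. No per-library depth was available for an interval on any region, and Wilson intervals cover counting error only.

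Centres were placed in GENCODE M21 with Python 3.11.15: within 1 kb of a start (promoter), then coding, UTR, non-coding exon, intron or intergenic. Hosts of several exons were ranked protein-coding first, then by exon type, then by length. Directions were compared by two-sided Fisher's exact tests (scipy 1.17.1), Mantel-Haenszel odds ratios (statsmodels 0.14.6) and Benjamini-Hochberg adjustment over 3 exon types, with a threshold of 0.05. The test code was checked on simulated data. The members and lists were chosen with earlier results of these data known. Named genes are the hosts of the 5 widest regions per direction and exon type, those with 2 regions or more, those in the 9 lists, the study's own genes, and every increased coding-exon host. The other genes named as nearest starts were chosen after their values were seen. Sequences were read from RefSeq GRCm38.p6. Some items that these rules select are not reported here.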

Additional observations from a re-analysis of the deposited data

How the results depend on the processing

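Across the alternatives, 87 values kept their direction and their side of the threshold, or moved little. The odds ratio of an increase over all exon types lost its call within GC classes (0.910), within chromosome and GC classes (0.914), with starts excluded to 0.1 kb (0.885) and in regions of 1 kb or more (0.794). That for UTRs lost it within GC classes (0.612) and within chromosome and GC classes (0.675). That for coding exons lost it in those 2 settings (0.798 and 0.983), without chromosomes 4, 7, 10 and 16 (0.525), within chromosomes (0.557), with starts excluded to 2.5 kb (0.554), where exonic bases had to be the majority (0.400) and in regions of 1 kb or more (0.493). The odds ratio for non-coding exons, never called in the report, turned below 1 within chromosomes (0.986), with basic transcripts (0.862) and when 1 exonic base was enough (0.825), and passed the threshold at 0.1 kb (1.34). Coding and UTR against non-coding exons lost its call with basic transcripts (0.572).

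The number of increased regions became 64 without the 4 chromosomes, 208 at 0.1 kb, 299 with 1 exonic base and 43 at 1 kb or more, and that of decreased ones 772 and 129 in the last 2 settings. The median exonic share of increased regions was 52.6% with basic transcripts. Searching whole regions raised the shares of increased regions to 59.4% (E-box), 39.6% (AP-1), 53.8% (TEAD), 65.1% (RUNX) and 41.5% (half-site), and of decreased ones to 61.6%, 33.9%, 42.5%, 56.5% and 57.9%, with 19.9% for the GC box. Beyond the GC and chromosome classes, whose construction shows what they hold fixed, and the smaller samples, the cause was not tested. The classes of chromosome with GC, of width, the RefSeq starts, regions without a start and the comparison with non-coding exons were chosen after seeing the data. No paired analysis was possible because the lists hold no value per library, and for the same reason no replicate could be left out. Depth cannot be stated for any region.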
